A study of Mus musculus with 18 samples.

Results

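This report describes 10 genes of the MHC class I antigen presentation pathway, B2m, H2-K1, H2-D1, Tap1, Tap2, Tapbp, Psmb8, Psmb9, Nlrc5 and Irf1, out of 55471 genes measured by RNA-Seq in mouse pluripotent stem cells and fibroblasts. The genes were chosen by name for their role in the pathway, and their expression was followed through all 18 libraries.

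Cells show MHC class I molecules at their surface to let T cells inspect the peptides made from their own proteins. The proteasome cuts proteins into peptides, a transporter carries the peptides into the endoplasmic reticulum, and a loading complex places them on a heavy chain paired with beta-2-microglobulin. Interferon strengthens nearly every step of this route, and embryonic stem cells (ESCs) are known for low levels of class I molecules, while fibroblasts carry them openly.

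The study asked whether OSKM, the reprogramming factors Oct4, Sox2, Klf4 and Myc, when expressed without interruption, can replace the usual supplements of mouse stem cell medium. The supplements of the control medium, called 2iL, are an inhibitor of MEK, an inhibitor of GSK3 and the cytokine LIF, in the serum-free base medium N2B27. OSKM-ESCs had been switched from 2iL to N2B27 plus doxycycline (DOX), which turns on the transgene, and were collected after 18, 25 and 38 days, with 2 samples per day. The unchanged 2iL-ESCs were sampled in the same way. OSKM-iPSCs were induced pluripotent stem cells reprogrammed from fibroblasts and kept in N2B27 plus DOX (clone 1 at passage 7, clone 3 at passage 6). 2iL-iPSCs were reprogrammed in 2iL plus DOX (clone 3 at passage 2, clone 6 at passage 3). Their labels give N2B27 plus DOX as the daily medium, whereas the study's methods give 2iL after withdrawal of DOX. The starting cells, mouse embryonic fibroblasts (MEF) at passage 4 in DMEM with serum, gave 2 libraries.

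All these cells carried M2rtTA, the activator that responds to DOX, at Rosa26 and one OSKM cassette at Col1a1. The ESCs were 1 line, which also had an Oct4-GFP reporter. The ESCs and the cells under reprogramming were grown on growth-arrested MEF feeder cells. By the labels, iPSCs and MEF were (C57BL/6 x 129S4/SvJae)F1, and the ESCs came from a cross of that F1 with a (CBA/CaJ X C57BL/6J)F2. Strain and cell type therefore cannot be told apart between ESCs and MEF, whereas iPSCs and MEF share 1 strain label.

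Values are FPKM, fragments per kilobase of transcript, scaled to the mapped fragments of the library, a scale on which genes can be compared with each other. Between 11303 and 12095 genes were above 1 FPKM in a library. Depth in reads is unknown. Replicate libraries shared no identical values. All 8 pluripotency markers examined were detected in every ESC and iPSC library, and Pou5f1, Nanog, Zfp42, Utf1 and Tdgf1 were listed at 0 in both MEF libraries. Their levels were not equal between media. The markers summed to 1268 to 1892 FPKM in OSKM-ESCs and 2869 to 3293 FPKM in 2iL-ESCs. In iPSCs the sums were 1046 and 1711 FPKM in the OSKM clones and 2858 and 3332 FPKM in the 2iL clones. Nothing in the labels says that the 2 samples of a day came from separate cultures. P-values within a day or among days of ESCs therefore measure only the spread between these samples, which may be technical. In the ESC comparison over all days, the spread also holds changes of the medium difference between days. In the comparisons of ESCs with MEF it holds all change between days.

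In the GRCm38 coordinates of the files, 7 of the 10 genes lie on chromosome 17 within 1352 kb, in the mouse MHC region. Psmb9, Tap1, Psmb8 and Tap2 form a tight cluster of 34.3 kb (chr17:34181987-34216321). Psmb9 and Tap1 point away from each other and overlap by 212 bases. H2-K1 (chr17:33996017-34000347, minus strand) and H2-D1 (chr17:35262730-35267499, plus strand) encode the classical heavy chains. Tapbp is at chr17:33915899-33929292. Outside the MHC lie B2m (chr2:122147686-122153083), the light chain gene, Irf1 (chr11:53770014-53778374), an interferon-inducible transcription factor, and Nlrc5 (chr8:94434356-94527272), the class I transactivator.

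Upstream sequences are shown for B2m, H2-K1 and Irf1, since their windows hold motif letters and lie outside annotated UTR. Capitals mark matches to 4 motifs on either strand, the IRF core AANNGAAA, the kappaB motif GGGATTCCC, the gamma-activated site GAS as TTCNNNGAA, and the CRE half-site TGACG. The sequences end just before the start site and come from RefSeq (GRCm38.p6), in the direction of the gene.
B2m (chr2:122147487-122147685): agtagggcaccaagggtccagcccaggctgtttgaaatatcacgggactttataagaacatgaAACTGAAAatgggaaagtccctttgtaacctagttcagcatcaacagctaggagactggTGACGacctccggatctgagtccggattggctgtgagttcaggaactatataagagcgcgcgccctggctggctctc
H2-K1 (chr17:34000348-34000547, minus strand): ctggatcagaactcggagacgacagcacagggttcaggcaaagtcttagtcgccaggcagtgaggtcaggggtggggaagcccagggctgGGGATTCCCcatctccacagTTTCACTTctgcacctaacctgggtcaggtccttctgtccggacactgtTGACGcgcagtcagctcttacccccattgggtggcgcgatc
Irf1 (chr11:53769814-53770013): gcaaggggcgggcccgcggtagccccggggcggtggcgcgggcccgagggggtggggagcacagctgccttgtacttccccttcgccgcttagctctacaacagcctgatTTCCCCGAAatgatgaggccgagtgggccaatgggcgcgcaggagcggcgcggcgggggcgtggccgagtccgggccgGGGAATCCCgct

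H2-K1 and H2-D1 share the kappaB and IRF letters in one stretch of 28 bases, which in H2-D1 lies inside the annotated gene and in annotated UTR. The pair is shown because these genes moved together between media but stood far apart in MEF.
H2-K1 (chr17:34000430-34000457, minus strand): GGGATTCCCcatctccacagTTTCACTT
H2-D1 (chr17:35262924-35262951): GGGATTCCCcatctcctcagTTTCACTT
Counted from 1 at the 5′ end, with the H2-K1 base first, the single difference is A17T, and the other 27 bases are the same. Promoter windows of 250 bases before and 50 after the start site were matched for 8 of the 10 genes, without Tap2 and Nlrc5. Among 32851 windows of all genes, 23.9% held the IRF core, 0.353% the kappaB motif, 8.30% the GAS letters and 20.8% the CRE half-site. The kappaB letters were in the windows of H2-K1, H2-D1 and Irf1, the GAS letters in those of Irf1 and Psmb8, and the IRF core in those of B2m, H2-K1 and H2-D1. Psmb9 and Tap1 held the CRE half-site, as did B2m, H2-K1 and H2-D1, and Tapbp held none of the 4. The CRE half-site of Psmb9 and Tap1 is the same stretch read from opposite strands. These matches are a description of the letters only.

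Between media in ESCs, 7 of the 10 genes were higher in OSKM-ESCs. Over days 18, 25 and 38 together, B2m, H2-K1, H2-D1, Tap1, Tap2, Psmb8 and Psmb9 rose, and none of the 9 genes tested had a difference below 0. Tapbp and Irf1 did not pass the test, and Nlrc5 was below 1 FPKM in every ESC library and was not tested. The call is an adjusted p under 0.05 in limma on log2(FPKM + 1), with day as a covariate and p-values adjusted by the Benjamini-Hochberg method over 14016 genes. Of all genes tested, 29.5% were called higher and 24.4% lower, and the median difference was 0.03, against 1.25 for the 9 genes. In bulk RNA, more cells with a gene on and more RNA per cell cannot be told apart.

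**Figure D1:**
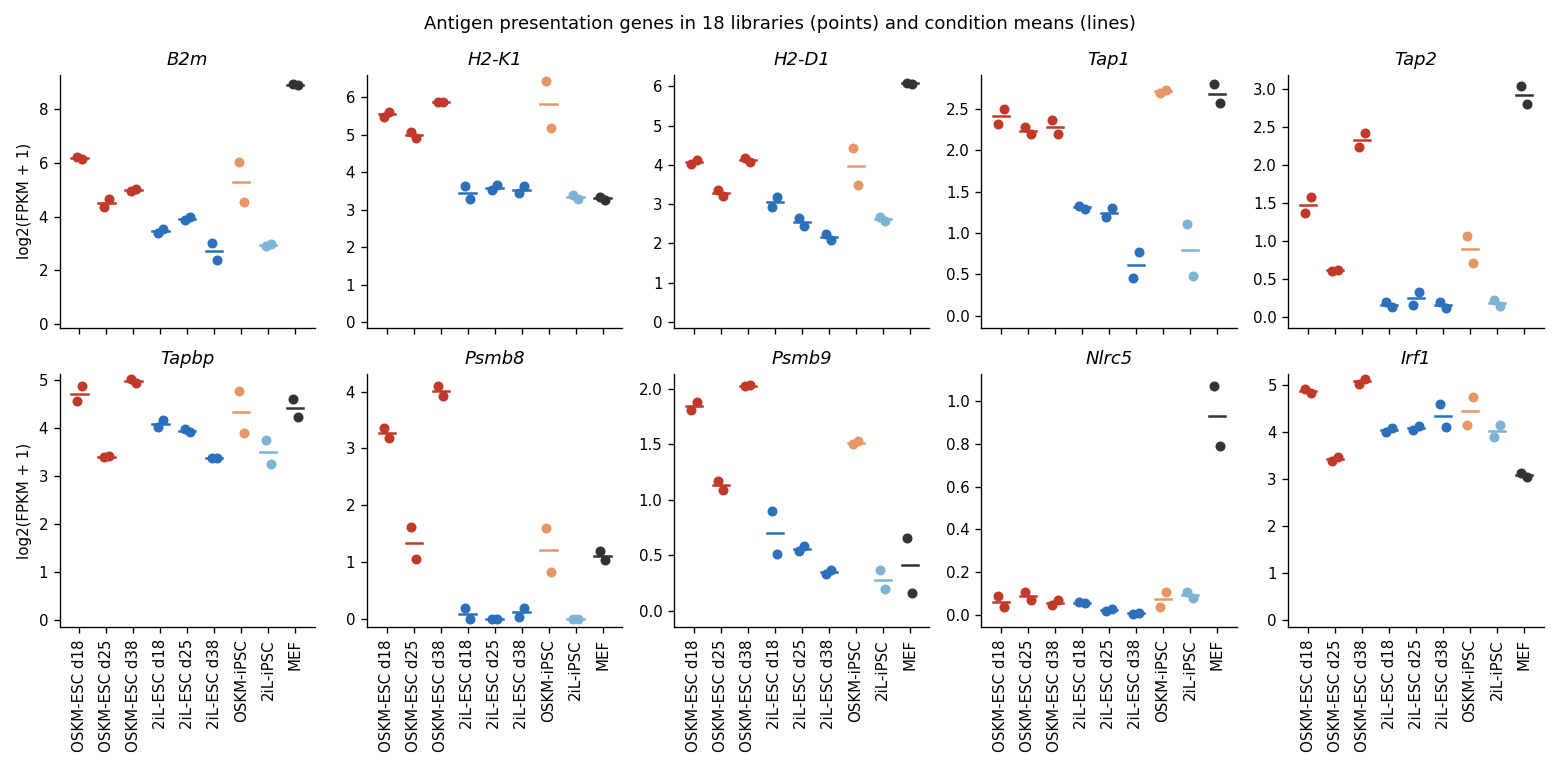
log2(FPKM + 1) of the 10 genes (vertical axes, one scale per gene) in 9 conditions (horizontal axis). Points are libraries, 2 per condition, and lines are condition means. In 7 genes all 6 OSKM-ESC points sit above all 6 2iL-ESC points, as in 14.6% of all genes tested. B2m, H2-D1, Tap2 and Nlrc5 are highest in MEF.

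H2-K1 ranged from 29.0 through a median of 45.7 to 58.0 FPKM in the 6 OSKM-ESC libraries, and from 8.68 through 10.9 to 11.6 FPKM in the 6 2iL-ESC libraries. The 2iL-ESC values were nearly flat over the days, while OSKM-ESCs were lowest at day 25 and highest at day 38, without overlap between media. The mean FPKM was 4.23-fold higher in OSKM-ESCs, a log2 difference of 1.94 ± 0.14 (SE, limma adjusted p = 3.4e-07). H2-D1 was lower in both media, at 8.24 to 16.9 FPKM (median 15.5) in OSKM-ESCs and 3.22 to 8.07 FPKM (median 4.84) in 2iL-ESCs. The lowest OSKM-ESC value was just above the highest 2iL-ESC value, and the log2 difference was 1.24 ± 0.17 (limma adjusted p = 7.3e-05).

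B2m, whose product every class I heavy chain needs, gave 74.3 and 69.3 FPKM at day 18 in OSKM-ESCs, 19.6 and 23.97 FPKM at day 25, and 29.8 and 31.7 FPKM at day 38. In 2iL-ESCs it gave 9.42 and 10.6 FPKM, then 13.7 and 14.7 FPKM, then 7.18 and 4.29 FPKM on the same days. The media did not overlap, but they came closest at day 25, when OSKM-ESCs were at their lowest and 2iL-ESCs at their highest. The log2 difference over all days was 1.86 ± 0.29 (limma adjusted p = 0.00018). The whole B2m gene is overlapped on the opposite strand by Patl2, which reached at most 5.29 FPKM, and the library kit does not keep strand.

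Tap1 and Tap2 encode the peptide transporter, and Tap1 was the more even of the pair. Tap1 ranged from 3.57 to 4.66 FPKM (median 3.92) in OSKM-ESCs and from 0.369 to 1.51 FPKM (median 1.37) in 2iL-ESCs, with no overlap and a log2 difference of 1.25 ± 0.12 (limma adjusted p = 4.9e-06). Tap2 gave 1.59 and 1.98 FPKM at day 18, 0.522 and 0.527 FPKM at day 25, and 3.71 and 4.35 FPKM at day 38 in OSKM-ESCs. In 2iL-ESCs Tap2 lay between 0.0793 and 0.251 FPKM (median 0.126). Thus Tap2 was near 0 in 2iL and varied widely between days in OSKM medium (log2 difference 1.29 ± 0.23, limma adjusted p = 0.00056). Tapbp, which encodes tapasin, the bridge between transporter and heavy chain, ranged from 9.49 to 31.6 FPKM (median 25.4) in OSKM-ESCs and from 9.33 to 17.1 FPKM (median 14.4) in 2iL-ESCs. The media overlapped, since both day 25 libraries of OSKM-ESCs fell below the same day of 2iL-ESCs, and the log2 difference of 0.56 ± 0.27 did not pass (limma adjusted p = 0.093). It passed when either OSKM-ESC library of day 25 was left out (0.71 and 0.70, limma adjusted p = 0.044 and 0.048), when either 2iL-ESC library of day 25 was left out (0.71 and 0.69, limma adjusted p = 0.041 and 0.049), and, in an analysis added after the values were seen, without day 25 (1.12, limma adjusted p = 0.0013).

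Psmb8 and Psmb9 encode inducible catalytic subunits of the immunoproteasome, the form of the proteasome that favours peptides for class I. Psmb8 gave 9.21 and 8.14 FPKM at day 18, 2.08 and 1.07 FPKM at day 25, and 16.1 and 14.2 FPKM at day 38 in OSKM-ESCs. In 2iL-ESCs it was listed at 0 in 3 of 6 libraries and reached at most 0.144 FPKM. Psmb8 thus had the largest difference of the 9 genes tested, a log2 difference of 2.80 ± 0.33 (limma adjusted p = 2.3e-05). Psmb9 ranged from 1.13 to 3.11 FPKM (median 2.61) against 0.259 to 0.865 FPKM (median 0.438), again without overlap (log2 difference 1.13 ± 0.16, limma adjusted p = 8.7e-05). Reads in the 212 bases shared with Tap1 cannot be assigned by strand, and Tapbp shares 3422 bases with Zbtb22, a gene of up to 17.9 FPKM.

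The 2 regulators behaved otherwise. Irf1 gave 29.5 and 27.4 FPKM, then 9.41 and 10.1 FPKM, then 31.7 and 33.9 FPKM on days 18, 25 and 38 of OSKM-ESCs, against 15.02 to 23.3 FPKM (median 16.1) in 2iL-ESCs. OSKM-ESCs were above 2iL-ESCs on days 18 and 38 and below on day 25, so the difference over all days was small (0.30 ± 0.21, limma adjusted p = 0.26). In an analysis added after the values were seen, the difference without day 25 was 0.78 (limma adjusted p = 0.00038). The day left out is the one with the opposite direction, so this value cannot speak for all days. Nlrc5 stayed at 0.0774 FPKM or less in all 16 ESC and iPSC libraries. Of all genes tested, 14.6% had their 6 OSKM-ESC values all above the 6 2iL-ESC values, as the 7 genes that rose did. An exact 2-sided permutation test of 6 against 6 libraries was shuffled without regard to day. In it the 7 genes that rose each gave an exact permutation p = 0.0022, the smallest value such shuffling allows. The 6 libraries of a medium are samples of 1 ESC line on days 18, 25 and 38, not independent replicates. Tapbp gave an exact permutation p = 0.115, Irf1 an exact permutation p = 0.392 and Nlrc5, at values near 0 (medians of 0.0488 and 0.0158 FPKM), an exact permutation p = 0.019.

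By day, the difference between media was widest at day 38 for 7 of 9 genes, all but B2m and Irf1, which differed most at day 18, and it was weakest at day 25 in each gene tested there. The share of all genes with this order of days is not given. At day 18, 9 of 9 genes tested were higher in OSKM-ESCs, where 25.7% of all genes were called higher and 17.7% lower. At day 25, 6 of 8 were higher and 2 lower, against 20.7% and 25.3% of all genes. At day 38, 9 of 9 were higher, against 34.6% and 25.2% of all genes. With median-ratio scaling the share of higher genes among all calls was 47.6% in place of 59.2% at day 18 and 46.5% in place of 57.9% at day 38. Each day compares 2 libraries with 2, where a permutation test cannot go below p = 0.333, so the calls rest on limma.

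The genes lower in OSKM-ESCs at day 25 were Tapbp (mean 9.59 ± 0.14 against 14.5 ± 0.49 FPKM, SD, n = 2) and Irf1 (9.74 ± 0.46 against 15.97 ± 0.63 FPKM). Their log2 differences were -0.54 (limma adjusted p = 0.0074) and -0.66 (limma adjusted p = 0.0045). Without 2iL-ESC library 1 of day 25 the limma adjusted p was 0.11 and 0.057, and without library 2 it was 0.085 and 0.074. The number of genes called higher at day 25 fell from 6 to 3 without 2iL-ESC library 2 of that day. H2-K1 and Tap1 held the larger differences at day 25 besides Psmb8, at 1.40 ± 0.11 and 0.99 ± 0.13 on the log2 scale. At day 38 the largest log2 differences were 3.90 ± 0.11 for Psmb8, 2.34 ± 0.08 for H2-K1, 2.27 ± 0.20 for B2m and 2.18 ± 0.12 for Tap2.

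**Figure D2:**
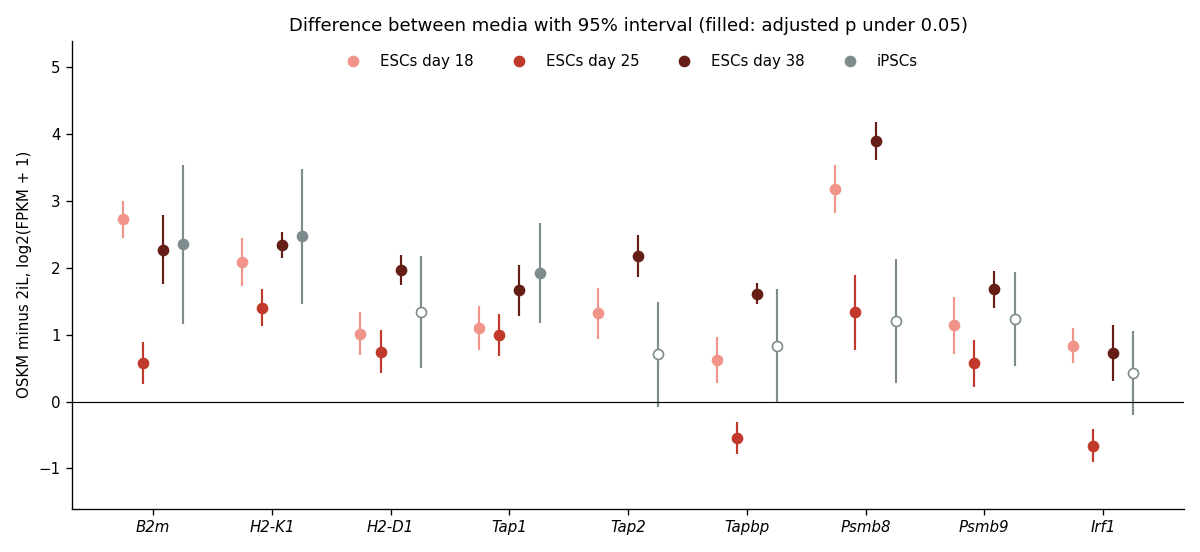
Difference between OSKM and 2iL medium on the log2(FPKM + 1) scale (vertical axis) for the 9 genes above the filter, at days 18, 25 and 38 of ESCs and in iPSCs. Bars are 95% intervals from limma, and filled points passed an adjusted p under 0.05. Tapbp and Irf1 lie below 0 at day 25 only, and Psmb8 spreads in ESCs from 1.34 at day 25 to 3.90 at day 38.

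A test of the interaction between medium and day asked whether the medium difference itself changed over the days. It was called for 9 of 9 genes, against 37.9% of all genes tested. The gap between the largest and the smallest difference was 2.56 for Psmb8, 2.16 for Tapbp, 2.15 for B2m and 1.81 for Tap2 on the log2 scale. It was smallest for H2-K1 (0.93, limma adjusted p = 0.0073) and Tap1 (0.67, limma adjusted p = 0.032), and the call on Tap1 was lost with median-ratio scaling (limma adjusted p = 0.058), with quantile normalization (0.11) and without a filter on low values (0.075).

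Within OSKM-ESCs, 8 of 9 genes tested differed among days, all but Tap1, against 38.6% of all genes. Psmb8 spanned 2.68 log2 units from day 25 to day 38, and Tap2, Irf1 and Tapbp spanned 1.72, 1.65 and 1.58 with the same low at day 25. H2-K1, H2-D1 and Psmb9 were lowest at day 25 too, and so was B2m, which peaked at day 18. Within 2iL-ESCs, 4 of 6 genes tested differed among days (B2m, H2-D1, Tap1 and Tapbp), against 50.8% of all genes. All 4 were at their lowest at day 38, by condition means. H2-K1 spanned 0.13 log2 units in 2iL-ESCs (limma adjusted p = 0.71).

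In iPSCs, 3 of 9 genes tested were higher in the OSKM clones and none lower, where 5% of all genes were called higher and 2.96% lower. H2-K1 gave 85.8 FPKM in OSKM-iPSC clone 1 and 35.5 FPKM in clone 3, against 9.47 and 8.81 FPKM in 2iL-iPSC clones 3 and 6. B2m gave 65.4 and 22.4 FPKM against 6.51 and 6.96 FPKM. Tap1 gave 5.45 and 5.65 FPKM against 1.15 and 0.388 FPKM. Both OSKM clones were above both 2iL clones for these genes, but clone 1 was more than double clone 3 in H2-K1 and B2m while the clones were level in Tap1. The log2 differences were 2.47 ± 0.40 for H2-K1 (limma adjusted p = 0.030), 2.35 ± 0.48 for B2m (limma adjusted p = 0.046) and 1.92 ± 0.30 for Tap1 (limma adjusted p = 0.028).

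The other 6 genes tested also did not overlap between the clones, but 37.2% of all genes tested lay higher in both OSKM clones than in both 2iL clones, and the adjusted p-values of the 6 were above the threshold. H2-D1 was at 20.7 and 10.2 FPKM in OSKM-iPSCs against 5.32 and 4.98 FPKM in 2iL-iPSCs (log2 difference 1.34, limma adjusted p = 0.069). Psmb9 was at 1.83 and 1.89 FPKM against 0.289 and 0.144 FPKM (1.24, limma adjusted p = 0.056). Psmb8 was at 2.02 and 0.774 FPKM and was listed at 0 in both 2iL-iPSC clones (1.21, limma adjusted p = 0.10). These 3 genes were higher in each OSKM clone, and the OSKM clones lay close together in Psmb9 but apart in H2-D1 and Psmb8. Tap2 (1.10 and 0.634 against 0.160 and 0.104 FPKM), Tapbp (26.3 and 13.96 against 12.6 and 8.57 FPKM) and Irf1 (16.7 and 26.0 against 13.9 and 16.7 FPKM) gave limma adjusted p-values of 0.20, 0.18 and 0.30. With median-ratio scaling 50.05% of all calls in iPSCs were higher, and with quantile normalization 49.0%, in place of 62.8%. The number of genes called higher among the 9 was 5 without OSKM-iPSC clone 3 and 0 without either 2iL-iPSC clone. A lone clone is then assumed to vary like the other group, and no share of all genes stands beside these counts.

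Whether the difference between OSKM and 2iL cells was unlike in iPSCs and ESCs was tested as a contrast of both differences over all 16 libraries. In iPSCs this difference also holds that of passage. None of 9 genes had a larger difference in iPSCs, and 2 had a smaller one, against 8.67% and 5.55% of all genes. They were Psmb8, smaller by a log2 value of -1.59 (limma adjusted p = 0.0040), and Tap2 (-0.58, limma adjusted p = 0.047). Psmb8 is listed at 0 in both 2iL-iPSC clones. Both calls were lost with a pseudocount of 0.1 (limma adjusted p = 0.10 and 0.22), and that on Tap2 also without a filter (0.063) and in TPM (0.099). At an unadjusted p under 0.05, 1 gene, Tap1, had a larger difference in iPSCs (0.67, limma adjusted p = 0.064). For the other 6 genes the 95% intervals of the contrast all included 0. That of H2-K1 ran from -0.20 to 1.27, which leaves its size unresolved.

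The share of inducible subunits puts Psmb8 and Psmb9 beside the constitutive subunits that they replace, Psmb5 and Psmb6. Psmb8 made up 3.93% and 3.72% of summed Psmb8 and Psmb5 FPKM in OSKM-ESCs at day 18, 1.11% and 0.640% at day 25 and 8.70% and 7.93% at day 38. The share was at most 0.0712% in 2iL-ESCs, 1.03% and 0.344% in OSKM-iPSCs and 1.47% and 1.22% in MEF. Psmb8 RNA was thus a minor fraction everywhere, with its highest share in OSKM-ESCs at day 38. Psmb9 reached at most 1.26% of summed Psmb9 and Psmb6. Psmb10, the gene of the third inducible subunit and not among the 10, made up 11.2% to 20.7% of its pair with Psmb7 in OSKM-ESCs and 5.08% to 8.17% in 2iL-ESCs. These ranges did not overlap, and Psmb10 itself was called higher (log2 difference 1.37 ± 0.14, limma adjusted p = 5.4e-06).

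**Figure D3:**
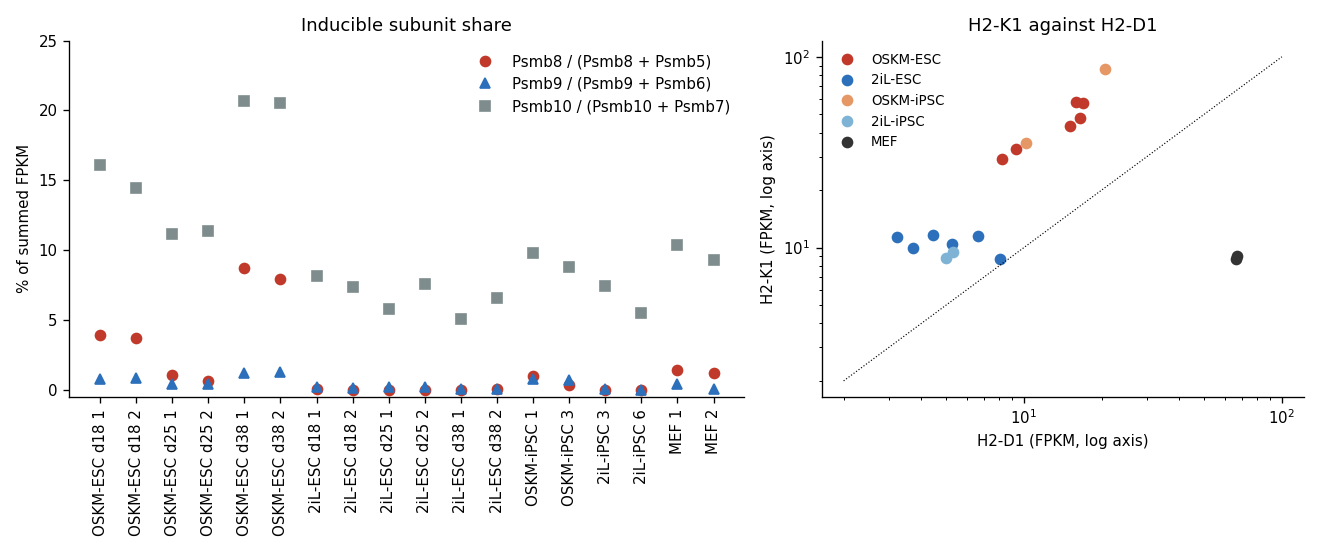
Left, FPKM of each inducible proteasome subunit as a percentage of its sum with the constitutive counterpart (vertical axis) in the 18 libraries. Right, H2-K1 against H2-D1 FPKM on log axes, one point per library, with the dotted line marking equal levels. Shares peak in OSKM-ESCs at day 38, and only MEF lie below the line.

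Against MEF, the genes split. B2m gave 499 and 476 FPKM in MEF, and H2-D1 gave 67.1 and 66.1 FPKM, both above every pluripotent library. H2-K1 gave only 9.07 and 8.67 FPKM in MEF. H2-K1 in fibroblasts was therefore near its level in 2iL cells, although the light chain and the other heavy chain were at their highest there. The ratio of H2-K1 to H2-D1 was 0.135 and 0.131 in MEF, 1.78 and 1.77 in 2iL-iPSCs, 4.15 and 3.48 in OSKM-iPSCs, 1.08 to 3.54 in 2iL-ESCs and 2.88 to 3.64 in OSKM-ESCs. MEF lay apart from all pluripotent cells, including the iPSCs of the same strain label. Class I genes are close copies of each other and differ between strains. The files count uniquely mapped reads, and the part of read assignment in these levels was not tested.

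In OSKM-iPSCs against MEF, H2-K1, Psmb9 and Irf1 were higher and B2m, H2-D1, Tap2 and Nlrc5 lower, 3 and 4 of 10 genes tested, against 34% and 26.4% of all genes (45.7% of all calls were higher with median-ratio scaling, in place of 56.3%). Tap1 (0.03, interval -0.38 to 0.43), Tapbp and Psmb8 did not pass. In 2iL-iPSCs, Irf1 was higher, and B2m, H2-D1, Tap1, Tap2, Tapbp, Psmb8 and Nlrc5 were lower, 1 and 7 of 9 genes tested, against 40.6% and 37.4% of all genes. B2m was 72.4-fold lower in 2iL-iPSCs than in MEF and 11.1-fold lower in OSKM-iPSCs, by mean FPKM. Neither MEF library could be left out without loss of calls, since without MEF library 1 or 2 no gene was called in OSKM-iPSCs, and in 2iL-iPSCs Irf1 was not called and 4 or 5 genes were called lower.

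In OSKM-ESCs, H2-K1, Psmb9 and Irf1 were higher than in MEF, and B2m, H2-D1, Tap1, Tap2 and Nlrc5 lower, 3 and 5 of 10 genes tested, against 38.2% and 31.5% of all genes. In 2iL-ESCs, Irf1 was higher, and B2m, H2-D1, Tap1, Tap2, Tapbp, Psmb8 and Nlrc5 were lower, 1 and 7 of 9 genes tested, against 40.7% and 35.3% of all genes. H2-K1 did not pass in 2iL-ESCs (0.22, interval -0.05 to 0.50) but did so without library 2 of day 18 (0.28, limma adjusted p = 0.033). In OSKM-ESCs 2 genes were called lower without MEF library 1 and 3 without MEF library 2, and 1 gene was called higher without MEF library 2. Nlrc5 was at 1.10 and 0.731 FPKM in MEF, the only libraries in which it passed 0.0774 FPKM. In OSKM-ESCs the call on Tap1 was lost with quantile normalization (-0.30, limma adjusted p = 0.094), and that on Irf1 with median-ratio scaling (1.14, limma adjusted p = 0.057). The comparisons of ESCs and iPSCs with MEF share the same 2 MEF libraries.

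By condition means, the order of levels differed from gene to gene. B2m ran from MEF through OSKM-ESCs of day 18, OSKM-iPSCs, OSKM-ESCs of days 38 and 25 to the 2iL cells, and the OSKM-iPSC clones reached from the day 25 range to just under the day 18 values. H2-K1 ran from OSKM-iPSCs through OSKM-ESCs of days 38, 18 and 25 to the 2iL cells and MEF, where MEF overlapped 2iL-iPSCs and 2iL-ESCs of day 18. The OSKM-iPSC clones lay on either side of OSKM-ESCs of days 38 and 18. Tap1 was level in OSKM-iPSCs and MEF, then lower in OSKM-ESCs, where day 38 overlapped the other days, and lowest in 2iL cells. Psmb8 ran from OSKM-ESCs of days 38 and 18 to OSKM-ESCs of day 25, OSKM-iPSCs and MEF, which overlapped, and then to the 2iL cells near 0. Irf1 was lowest in MEF (7.83 and 7.28 FPKM), below OSKM-ESCs of day 25.

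Other cells in the cultures could carry class I RNA, so marker lists were read beside the results. The sum of 14 fibroblast markers was 1411 and 1588 FPKM in MEF, 22.1 to 37.9 FPKM in OSKM-ESCs and 4.63 to 7.33 FPKM in 2iL-ESCs, or 1.48% to 2.52% and 0.309% to 0.489% of the MEF mean. It was 7.06 and 105 FPKM in OSKM-iPSCs and 2.40 and 4.47 FPKM in 2iL-iPSCs. At most 1 of 14 markers was at 0 in an OSKM-ESC library and 1 to 3 in a 2iL-ESC library. Of 11 markers tested in ESCs, 10 were called higher in OSKM-ESCs and none lower, beside 29.5% and 24.4% of all genes. The markers therefore moved with the medium, as the class I genes did, and their part in B2m, H2-D1, Tap1 and Tap2, which are higher in MEF, was not tested. H2-K1, Irf1 and Psmb9 had lower levels in MEF than in any OSKM-ESC library, and so had Psmb8 than in those of days 18 and 38. From day 18 to day 38 the marker sum of OSKM-ESCs fell from 35.4 and 37.9 to 22.1 and 22.8 FPKM. H2-K1, Tap2, Tapbp, Psmb8, Psmb9 and Irf1 were higher at day 38. B2m fell with the markers, from 74.3 and 69.3 to 29.8 and 31.7 FPKM, and H2-D1 and Tap1 overlapped between these days. The part of fibroblast RNA in these changes was not tested.

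In OSKM-iPSCs the clones differed sharply in these markers. Clone 1 held 6.97% of the MEF sum and clone 3 held 0.471%, with Col1a2, a collagen gene of fibroblasts, at 36.1 and 0.130 FPKM. Clone 1 was also the clone with more B2m, H2-K1, H2-D1, Tap2, Tapbp and Psmb8. Tap1 and Psmb9 were nearly level between the clones, and Irf1 and Nlrc5 were higher in clone 3. In clone 3, whose marker sum is above those of both 2iL-iPSC clones, H2-K1, B2m and Tap1 were above both as well, and the part of fibroblast RNA was not tested. Without clone 1 the log2 difference was 1.85 for H2-K1 (limma adjusted p = 0.029), 1.60 for B2m (limma adjusted p = 0.033) and 1.94 for Tap1 (limma adjusted p = 0.053). Of the haematopoietic markers, Ptprc, the gene of the pan-leukocyte antigen CD45, reached at most 0.0277 FPKM outside MEF. The list summed to 7.27 to 15.4 FPKM in OSKM-ESCs and 31.1 to 55.0 FPKM in 2iL-ESCs, largely Laptm5 and Cd68. The other lists held 4 markers each. Trophoblast markers summed to 25.0 and 26.5 FPKM in OSKM-ESCs of day 38, almost all of it Cdx2, against 1.63 to 4.33 FPKM on the other days and 0.270 to 1.499 FPKM in 2iL-ESCs. Endoderm markers summed to 4.95 and 6.63 FPKM at day 38, against 0.584 to 1.86 FPKM in the other OSKM-ESC libraries and 0.342 to 1.64 FPKM in 2iL-ESCs. In both libraries of that day 2 of the 4 trophoblast markers were at 0. Both sums were thus highest on the day when H2-K1, Tap2 and Psmb8 were highest in ESCs, and the part of these markers in those levels was not tested. In OSKM-iPSCs trophoblast markers, mostly Krt7, summed to 11.9 and 13.6 FPKM, against 2.11 and 0.943 FPKM in 2iL-iPSCs, and Krt7, a keratin gene, was called higher there (2.90, limma adjusted p = 0.0096). The trophoblast sum was thus higher in the OSKM cells of both kinds, but through different genes. It rested on Cdx2 in ESCs of day 38 and on Krt7 in iPSCs, so the list did not move as one. Its part in the class I levels was not tested. Of 2 endothelial markers tested in ESCs, Pecam1 was lower in OSKM-ESCs (-1.56, limma adjusted p = 1.9e-06) and Tek higher (0.85, limma adjusted p = 0.0064). Among the 8 pluripotency markers, 6 were lower and 1 higher in OSKM-ESCs over all days (median -1.79), beside 24.4% and 29.5% of all genes. Their part in the class I levels was not tested.

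**Figure D4:**
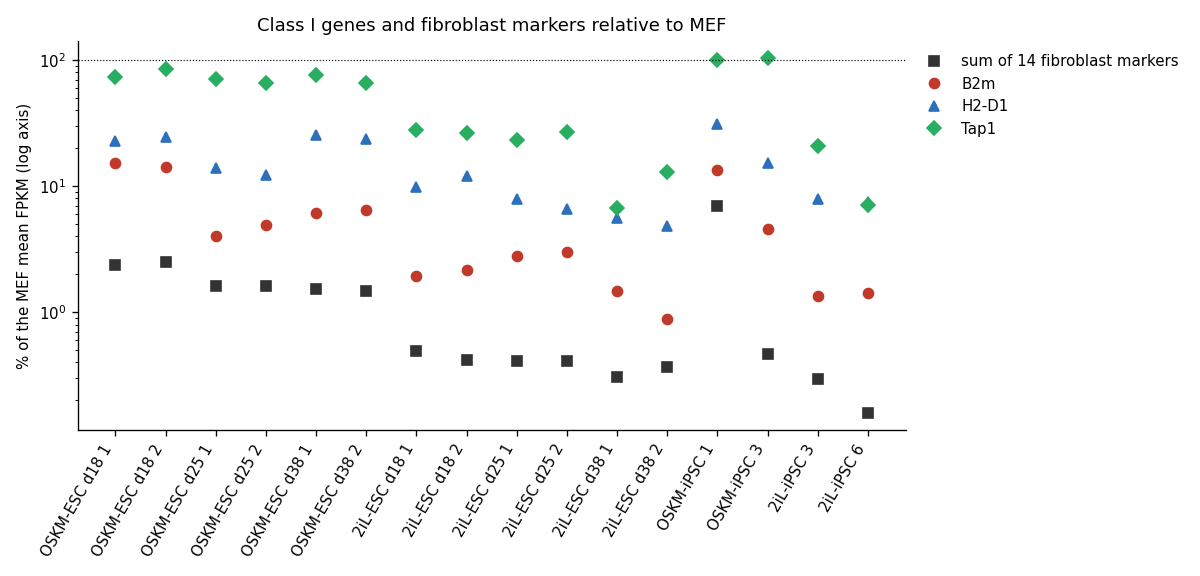
FPKM as a percentage of the MEF mean (log axis) in the 16 ESC and iPSC libraries for B2m, H2-D1, Tap1 and the sum of 14 fibroblast markers. The marker sum stays at or below 2.52% in ESCs and reaches 6.97% in OSKM-iPSC clone 1, while Tap1 lies between 65.5% and 104% in OSKM cells.

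The partners of the 10 genes were read from lists. Beyond the up to 4 called genes of each list with the largest difference, genes are named from here on where a count is small or a value stood apart, and these were chosen after their values were seen. Of 8 peptide trimming and loading partners tested, 5 were higher over all days in OSKM-ESCs (Erap1, Tapbpl, Hspa5, Sec61a1 and Pdia3) and 1 lower (Calr). Their median log2 difference was 0.21, and of all genes tested 29.5% were called higher and 24.4% lower. Erap1, the aminopeptidase that trims peptides to fit class I, rose by 1.76 ± 0.22 (limma adjusted p = 2.9e-05). Its FPKM was 6.45 and 5.27 at day 18, 1.66 and 2.37 at day 25 and 6.61 and 7.92 at day 38 in OSKM-ESCs, against 0.434 to 0.738 in 2iL-ESCs. Erap1 thus had the same low at day 25 as Psmb8 and Tap2. Of 18 proteasome genes tested, 6 were higher and Psma4 was lower (median 0.07), so the share called higher was near the 29.5% of all genes. Those with the largest differences were the inducible Psmb10 and Psme2, the latter a subunit of the proteasome activator PA28 (0.74 ± 0.25).

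Of 10 other class I genes tested, 6 were higher and 3 lower (median 0.67), beside 29.5% and 24.4% of all genes. H2-Q4 and H2-T22, which are non-classical class I genes, rose by 1.34 ± 0.14 and 1.33 ± 0.22. H2-M5, Fcgrt and Cd1d1 fell. H2-M5 was at 15.7 to 22.6 FPKM in 2iL-ESCs and 1.24 to 2.74 FPKM in OSKM-ESCs, and Fcgrt, the neonatal Fc receptor gene, at 3.98 to 5.17 and 0.287 to 0.523 FPKM. The direction was thus not common to all genes with a class I fold. Of 4 class II genes tested, H2-Eb1, Cd74 and H2-DMb1 were lower and H2-DMa higher (median -0.60). Ciita, the class II transactivator, was at most 0.389 FPKM in any library.

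Among 18 transcription and chromatin factors that bind class I promoters or silence the pathway, 6 were higher and 6 lower (median -0.05). Beside them, 29.5% of all genes were called higher and 24.4% lower. Nfkb1 and Nfkb2, NF-kappaB subunits, rose by 1.36 ± 0.14 and 1.06 ± 0.19, and Relb of the same family fell by 1.78 on the log2 scale. Eed, a subunit of the Polycomb repressive complex PRC2, fell by 0.85, and its partners Ezh2 and Suz12 were lower as well.

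The interferon lists were mixed. Ifng and Ifnb1 were listed at 0 in all 18 libraries. Of 15 interferon pathway genes tested, 3 were higher in OSKM-ESCs (the receptor genes Ifngr1, Ifngr2 and Ifnar1) and 6 lower (median -0.08 over all days, 0.01 at day 18, -0.39 at day 25 and 0.04 at day 38), beside 29.5% and 24.4% of all genes. The lower ones included Stat2 and Irf9, which act in type I interferon signalling, at -1.70 and -1.36, and Socs3, a feedback inhibitor of LIF signalling, at -2.86. Of 23 interferon-induced genes tested, 5 were higher (Gbp2, Gbp3, Ifit2, Gbp7 and Cxcl10) and 7 lower, with a median of -0.53 over all days.

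The interferon-induced genes turned on the day. At day 18, 4 of 23 tested were higher in OSKM-ESCs (Gbp2, Gbp3, Ifit2 and Cxcl10) and 17 lower. At day 25, 2 of 12 were higher (Gbp2 and Oasl2) and 8 lower. At day 38, 12 of 18 were higher and 4 lower (Oas1a, Bst2, Ifitm2 and Ifitm3). Their median log2 difference was -1.35, -0.77 and 0.81 on these days. Of all genes tested, 25.7%, 20.7% and 34.6% were called higher on these days, and 17.7%, 25.3% and 25.2% lower. The 2iL-ESC libraries of day 18 stood apart in these genes. In them Isg15, an antiviral ubiquitin-like modifier, was at 44.3 and 34.4 FPKM, against 0.304 FPKM or less in the other 4 2iL-ESC libraries. Usp18, a brake on interferon signalling, was at 27.1 and 24.2 FPKM against 0.150 FPKM or less, and Rtp4 at 30.8 and 35.3 FPKM against 0.281 FPKM or less. Among days of 2iL-ESCs, 20 of 20 interferon-induced genes tested were called, against 50.8% of all genes.

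In those same 2 libraries the class I genes were mixed. H2-K1 was at 11.5 and 8.68 FPKM, Psmb8 at 0.138 and 0 FPKM and Tap2 at 0.138 and 0.0918 FPKM, none above the highest of the other 4 libraries, and B2m and Irf1 were not above it either. H2-D1, at 6.63 and 8.07 FPKM, was above them (3.22 to 5.24 FPKM), and so were Tapbp, by a small margin, and Nlrc5. Tap1 (1.51 FPKM) and Psmb9 (0.865 FPKM) were above them in library 1 only, so that 5 of the 10 genes exceeded the other libraries in at least 1 of the 2. In OSKM-ESCs the interferon-induced Gbp2 gave 25.1 and 19.6 FPKM, then 2.61 and 3.74 FPKM, then 21.6 and 22.4 FPKM on days 18, 25 and 38, the same day 25 low as Irf1, Psmb8 and Tap2. In 2iL-ESCs Gbp2 was at most 0.472 FPKM.

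**Figure D5:**
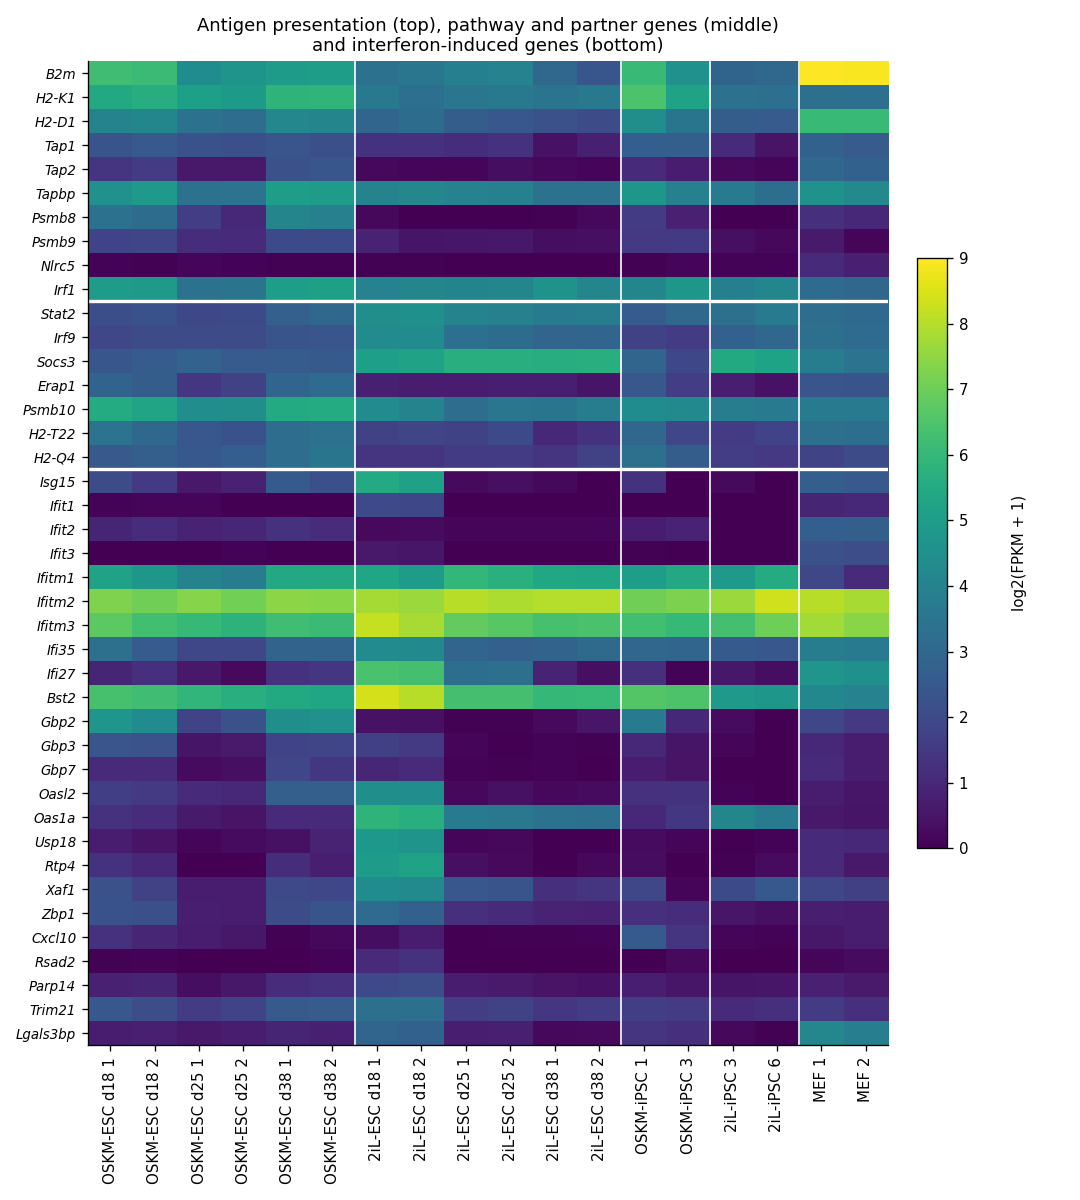
log2(FPKM + 1) (colour) in the 18 libraries (columns) for the 10 genes (top), 7 pathway and partner genes (middle) and 24 interferon-induced genes above 1 FPKM in any library (bottom). Many genes of the bottom block are bright in the 2iL-ESC libraries of day 18. Psmb8 and Tap2 stay dark there. H2-D1, Tapbp and Nlrc5 are above the other 2iL-ESC libraries in both, and Tap1 and Psmb9 in library 1.

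The genes whose expression was most like the mean z-score of the 10 genes over the 16 ESC and iPSC libraries were Erap1 (Pearson r = 0.98), Cyp26a1 (0.96), Stbd1 (0.96), Casd1 (0.96) and Gskip (0.95), out of 14621 genes. Of the 10 genes themselves, Psmb9 (0.98) and H2-D1 (0.96) lay closest to this mean, and Irf1 (0.62) and Nlrc5 (0.28) farthest from it. Each of the 10 is itself part of the mean, which raises its r, so these values cannot be set beside those of other genes. Over all 18 libraries Erap1 (0.98) and Casd1 (0.96) led again, followed by Tspan6, Meis3 and Tmem242. These correlations are descriptions over libraries that share media and days. Erap1 also belongs to the pathway, as described above, and is encoded on chromosome 13, outside the MHC.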

How the data were processed

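Genes, lists and comparisons were chosen with earlier results of these data known. According to the methods and the labels, RNA was made into non-stranded poly-A libraries, and the authors aligned reads to GRCm38 with STAR 2.7.1a, kept unique reads and quantified genes with StringTie 2.0. All tests used the FPKM values as deposited. The deposited coverage, a signal per base without normalization, served as a check of scale (2.99 to 3.62 per FPKM). Without counts, depth is unknown. Values of repeated identifiers (11) were summed, and 2 genes with a failed value were left out.

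Each comparison was tested with limma 3.58.1 in R 4.3.3 (moderated statistics, mean-variance trend), on log2(FPKM + 1). Its libraries alone entered the model, and genes had to exceed 1 FPKM in at least 1 of them. Differences are on this scale, which understates changes of low genes. A gene was called at a Benjamini-Hochberg adjusted p under 0.05 over all genes tested. Named partners are the up to 4 called genes of each list with the largest difference over all days in ESCs. The procedure was tested on simulated data. Alternatives covered pseudocount, filter, scaling (median-ratio, quantile, TPM), the trend, the study's cutoff (fold over 2, unadjusted p under 0.05), a single fit of 9 conditions, a block on sample number and libraries left out. One gene is not reported here.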

Additional observations from a re-analysis of the deposited data

Results flagged for a closer look

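In 6 libraries of one medium, a single value stood apart by a gap of more than 0.625 of the range in 2 of 20 checks. For 6 independent values chance gives about 1 in 20. These libraries are pairs from 3 days, so that rate cannot be set beside this count. Irf1 was at 23.3 FPKM in 2iL-ESC library 1 of day 38, against 15.02 to 16.4 FPKM in the other 5 (gap over range 0.831). Tap2 was at 0.251 FPKM in 2iL-ESC library 2 of day 25, against 0.0793 to 0.140 FPKM in the others (gap over range 0.645), all near 0.

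The medium difference itself varied between days for 9 genes. On the log2 scale the largest and smallest of the 3 differences lay 2.56 apart for Psmb8, 2.16 for Tapbp, 2.15 for B2m, 1.81 for Tap2, 1.496 for Irf1, 1.22 for H2-D1, 1.11 for Psmb9, 0.93 for H2-K1 and 0.67 for Tap1, with limma adjusted p-values from 3.1e-05 (Tapbp) to 0.032 (Tap1). Between iPSCs and ESCs the medium difference was lower in iPSCs for Psmb8 (-1.59) and Tap2 (-0.58).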

How the results depend on the processing

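No call changed to the opposite direction under any alternative, but differences near 0 could change sign. Tap1 in OSKM-iPSCs (5.45 and 5.65 FPKM), for instance, lay between the 2 MEF libraries (5.94 and 4.96 FPKM). Of the counts of called genes, 312 stayed within 1.5 times and 26 moved, and of the values of single genes 1482 kept their side of the threshold, 26 crossed it upward and 102 downward. The genes lower at day 25 numbered 0 by the study's cutoff and 1 in the single fit of 9 conditions. The genes higher in OSKM-iPSCs numbered 0 without a filter, 6 by the study's cutoff and 8 in the single fit. Without a filter 2 genes differed among days of 2iL-ESCs. The genes with a smaller medium difference in iPSCs numbered 0 with a pseudocount of 0.1, 1 without a filter and 1 in TPM. The causes were not tested. The shares of all genes called are not given for these settings or for libraries left out. Such counts therefore show only how far the calls depend on the setting.

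Leaving out single libraries gave 3 to 6 genes higher and 0 to 2 lower at day 25, and 0 to 5 higher in iPSCs. Against MEF it gave 0 to 2 higher and 0 to 4 lower in OSKM-iPSCs, 0 to 1 higher and 4 to 5 lower in 2iL-iPSCs, 1 to 4 higher and 2 to 5 lower in OSKM-ESCs and 1 to 2 higher in 2iL-ESCs. A block on sample number changed no count by more than 1.5 times. Deviations of same-numbered libraries correlated at 0.13, 0.09 and 0.01 on days 18, 25 and 38, so the numbers were not taken as pairs. Median-ratio scaling moved the median difference of all genes by over 0.1 in 7 comparisons, most of all against MEF, from 0.19 to -0.03 in OSKM-iPSCs and from 0.15 to -0.04 in OSKM-ESCs. With FPKM alone, values near 0 such as those of Nlrc5 and of Psmb8 in 2iL cells carry no counting error.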
